A study of Mus musculus with 8 samples.

Results

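Genes of the lung endothelium were followed in lung RNA of control mice and of a mouse model of chronic obstructive pulmonary disease (COPD). The 10 genes, Car4, Ednrb, Apln, Gpihbp1, Plvap, Aplnr, Pecam1, Cdh5, Kdr and Vwf, were chosen by symbol as known markers of alveolar capillaries and of endothelium in general, and are 10 of the 52636 gene identifiers in the count tables. The choice by symbol used no measured value, although results of these data were known when the genes were listed. Each symbol matched 1 Ensembl identifier, and all 10 genes had enough counts to be tested, with at least 456 counts in every library.

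The wall of a lung alveolus is lined by capillaries made of aerocytes and general capillary cells. Aerocytes are large, thin cells of the gas exchange surface and carry Car4, Ednrb, Apln and a high level of Kdr, whereas general capillary cells carry Gpihbp1, Plvap and Aplnr and act as the progenitors that renew both kinds. Apelin, the product of Apln, is a secreted peptide and Aplnr encodes its receptor, so that ligand and receptor belong to different cells of the same capillary. Pecam1 and Cdh5 are expressed in endothelial cells of all vessels, and Vwf is strongest in larger vessels and is also made by megakaryocytes.

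All mice were wild type male C57BL/6. COPD was modelled by porcine pancreatic elastase (PPE), which destroys alveolar walls, given at 10 weeks of age and followed by lipopolysaccharide (LPS) from 12 weeks of age, and the control mice were given PBS in place of both. From 8 weeks of age the mice of both kinds were fed either a control diet or a diet containing 2% TJ-41 (hochuekkito, a Japanese herbal medicine), which gives 4 groups with 2 libraries each: control mice under control diet, control mice under TJ-41 diet, COPD mice under control diet and COPD mice under TJ-41 diet. The libraries were made from total RNA of lung, so that every value is an average over all cells of the tissue, and fewer cells of a type cannot be told apart from less RNA per cell. Neither the labels nor the methods say that the 2 libraries of a group came from separate animals, and p-values therefore measure the spread between these libraries, which may be technical. The age at which RNA was taken was not stated.

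The 8 libraries held 18767295 to 20888042 counts assigned to genes. Levels are given as CPM (reads of a gene scaled to a common library size) after scaling by TMM factors. All tests are quasi-likelihood tests of edgeR, and p-values were adjusted by Benjamini-Hochberg over the 20546 genes tested. A gene was called at a false discovery rate under 0.05 together with an absolute log2 fold change above 1. The 2 libraries of COPD mice under control diet differed from each other more than other replicates did: over all genes tested, the SD of the log2 difference between replicates was 0.798 in that group and 0.394 to 0.469 in the other groups.

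The promoters of Apln and Ednrb are shown because these genes had the lowest levels of COPD mice relative to control mice, among the 10, under TJ-41 diet and for the mean of both diets. The RefSeq promoter table (build GRCm38.p6; 250 bases before and 50 bases after the start of transcription) held 4 of the 10 genes, namely Apln, Ednrb, Kdr and Car4. Capitals mark GGAAG or its reverse complement CTTCC, the core of the site read by ETS factors, the family to which the endothelial regulators Erg and Fli1 belong.
Apln, chrX:48034804-48035103, minus strand: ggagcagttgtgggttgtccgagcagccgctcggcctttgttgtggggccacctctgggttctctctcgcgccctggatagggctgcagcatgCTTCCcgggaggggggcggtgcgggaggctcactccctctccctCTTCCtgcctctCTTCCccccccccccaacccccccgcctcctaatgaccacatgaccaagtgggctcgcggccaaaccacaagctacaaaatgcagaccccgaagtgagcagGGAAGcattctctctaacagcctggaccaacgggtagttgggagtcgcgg
Ednrb, chr14:103843652-103843951, minus strand: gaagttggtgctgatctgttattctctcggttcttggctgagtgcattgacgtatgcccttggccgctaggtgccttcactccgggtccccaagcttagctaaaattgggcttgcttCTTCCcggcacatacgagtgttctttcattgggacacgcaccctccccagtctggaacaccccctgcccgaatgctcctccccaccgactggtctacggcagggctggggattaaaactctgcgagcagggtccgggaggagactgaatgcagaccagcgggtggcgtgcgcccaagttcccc
The Apln promoter held 4 such cores and the Ednrb promoter 1. Of all 32851 promoters in the table, 71.4% held at least 1 core on either strand and 6.04% held 4 or more. Car4 had 2 cores and Kdr had 1. The letters ACGTG, read on both strands as the core of the hypoxia response element, occurred in 19.6% of all promoters, once in the Car4 promoter and in none of the other 3. The Ednrb window starts from the RefSeq start, which lies inside the gene as annotated in GENCODE rather than at its outer end. These matches describe letters in the windows and no binding was measured.

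Per kilobase of exon, Cdh5, Plvap and Pecam1 were the most abundant of the 10 and the apelin ligand the least. Cdh5 (VE-cadherin, the adhesion molecule of endothelial junctions) had 208 ± 29.1 CPM per kb (SD, n = 8), Plvap 179.8 ± 56.1 and Pecam1 136 ± 8.34. Car4 and Kdr followed at 57.1 ± 7.39 and 57.1 ± 12.6 CPM per kb, then Gpihbp1 at 39.2 ± 7.91, Vwf at 28.8 ± 6.08, Aplnr at 27.8 ± 4.16, Ednrb at 24.2 ± 7.34 and Apln at 14.6 ± 5.06. In all 8 libraries the steps were kept from Pecam1 to Car4, from Gpihbp1 to Vwf and from Ednrb to Apln. Cdh5 lay above Plvap in 6 of 8 libraries, Car4 above Kdr in 3, Vwf above Aplnr in 4 and Aplnr above Ednrb in 5, so these neighbours did not differ beyond their spread. Exon lengths were those of all annotated exons joined, which can understate the level of genes with long transcript variants.

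**Figure D1:**
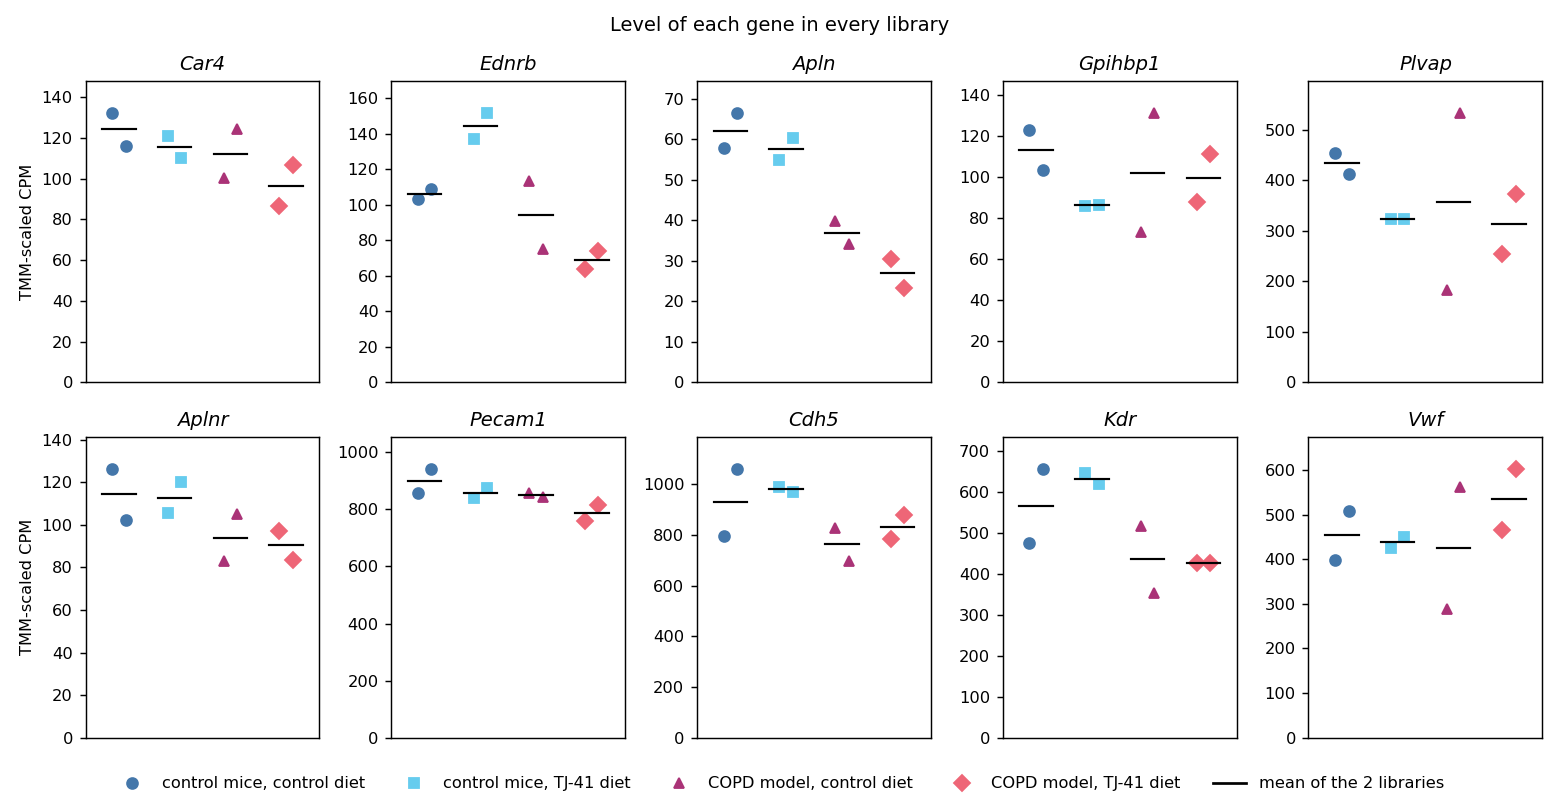
The y axis of each panel gives the TMM-scaled CPM of 1 gene, starting at 0, and each symbol is 1 library (2 per group), with a black line at the mean of the 2 libraries. Apln lies at 54.8 to 66.5 CPM in the 4 libraries of control mice and at 23.3 to 39.9 CPM in the 4 libraries of COPD mice, whereas Plvap and Vwf spread widely in COPD mice under control diet.

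The first question was whether capillary and endothelial genes differ between COPD mice and control mice. Apln was lower in every library of COPD mice than in every library of control mice, and Ednrb overlapped between them under control diet and lay below control mice in both libraries under TJ-41 diet. No gene of the 10 was called under control diet, under TJ-41 diet or for the mean of both diets, where 0.122%, 0.0779% and 0.443% of all genes tested were called. DESeq2 called 2 members under TJ-41 diet, Apln and Ednrb (adjusted p = 0.000708 and 0.00256), and 0 under control diet and for both diets. The share of all genes that DESeq2 called was not worked out, so these calls cannot be set beside it. With the false discovery rate alone, without the limit on fold change, Apln passed in the edgeR fit for the mean of both diets. In that fit 0.506% of all genes did so (0.127% in the lower direction), and no other member passed in any comparison. With DESeq2, Ednrb also had an adjusted p under 0.05 for both diets (0.0185).

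Apln, on chromosome X (48025146 to 48034853, minus strand, GRCm38; ENSMUSG00000037010), encodes apelin. Its level was 58.0 and 66.5 CPM in control mice under control diet, 54.8 and 60.4 CPM in control mice under TJ-41 diet, 39.9 and 34.0 CPM in COPD mice under control diet, and 30.6 and 23.3 CPM in COPD mice under TJ-41 diet. All 4 libraries of COPD mice were below all 4 libraries of control mice, as for 3.43% of all genes tested, and no member was separated in the higher direction, as 3.35% were. Over both diets the level fell to 52.7% of that in control mice (log2 fold change −0.92, SE 0.13, adjusted p = 0.0225). Within a diet, the log2 fold change was −0.75 (SE 0.19, adjusted p = 0.321) under control diet and −1.10 (SE 0.19, adjusted p = 0.128) under TJ-41 diet. Without replicate 1 of COPD mice under control diet, the value under control diet was −0.87 (adjusted p = 0.0192). Under TJ-41 diet Apln passed both thresholds in 5 of 17 settings, among them DESeq2. Its log2 fold change there was −1.09 without replicate 1 and −1.08 without replicate 2 of COPD mice under control diet. Those 2 libraries enter that comparison only through the estimate of the spread, the TMM factors and the set of genes tested. Over the 16 settings tried, the one reported included, the adjusted p for both diets ran from 3.3e-06 to 0.175 and was under 0.05 in 9. It rose above the threshold when any 1 of 6 libraries was left out (adjusted p from 0.0582 to 0.175), namely each library of control mice and each library of COPD mice under TJ-41 diet, while the log2 fold change stayed between −1.03 and −0.83.

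Ednrb (chromosome 14, 103814625 to 103844402, minus strand; ENSMUSG00000022122) encodes the endothelin B receptor, which binds endothelins and clears them from blood passing through the lung. Its level was 103 and 109 CPM in control mice under control diet and 137 and 152 CPM under TJ-41 diet. In COPD mice it was 114 and 75.2 CPM under control diet and 63.7 and 73.8 CPM under TJ-41 diet. The COPD mice and control mice therefore overlapped under control diet and were well separated under TJ-41 diet. The log2 fold change was −0.17 (SE 0.21, adjusted p = 0.924) under control diet and −1.07 (SE 0.21, adjusted p = 0.214) under TJ-41 diet. On the TJ-41 diet the value passed both thresholds in 5 of 17 settings, among them DESeq2. It was −1.07 without replicate 1 and −1.06 without replicate 2 of COPD mice under control diet. Those libraries take part in that comparison only through the estimate of the spread, the TMM factors and the set of genes tested. For both diets the log2 fold change was −0.62 (SE 0.15, adjusted p = 0.141). It passed the false discovery rate in 5 of 16 settings, among them DESeq2 (−0.62, adjusted p = 0.0185). The value was −0.78 without replicate 1 and −0.48 without replicate 2 of COPD mice under control diet. Without replicate 2 of COPD mice under control diet, the value under control diet turned to 0.10, and without replicate 1 it was −0.50.

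Car4 (chromosome 11, 84957786 to 84966044, plus strand; ENSMUSG00000000805) encodes carbonic anhydrase 4, an enzyme on the cell surface that interconverts carbon dioxide and bicarbonate. It had 132 and 116 CPM in control mice under control diet, 121 and 110.0 CPM under TJ-41 diet, 100.2 and 124 CPM in COPD mice under control diet and 86.7 and 107 CPM under TJ-41 diet. These groups overlapped under control diet and were separated by a narrow gap under TJ-41 diet. The log2 fold change for both diets was −0.20 (SE 0.13, adjusted p = 0.617).

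Kdr (chromosome 5, 75932827 to 75978458, minus strand; ENSMUSG00000062960) encodes VEGF receptor 2, the main signalling receptor for vascular endothelial growth factor. The values in control mice were 476 and 656 CPM under control diet and 645 and 619 CPM under TJ-41 diet. In COPD mice they were 517 and 354 CPM under control diet and 427 and 428 CPM under TJ-41 diet. The lowest library of control mice lay below the highest library of COPD mice, so the groups overlapped over both diets. A log2 fold change of −0.47 (SE 0.16, adjusted p = 0.344) was fitted for both diets, and it passed the false discovery rate in 1 of 16 settings, the one without replicate 1 of COPD mice under control diet (−0.62, adjusted p = 0.0116).

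None of the general capillary genes passed the test. Gpihbp1 (chromosome 15, 75596628 to 75599481, plus strand; ENSMUSG00000022579) encodes the protein that carries lipoprotein lipase to the capillary lumen. It had 123 and 103 CPM in control mice under control diet, 85.9 and 86.4 CPM under TJ-41 diet, 73.2 and 131 CPM in COPD mice under control diet and 87.6 and 111 CPM under TJ-41 diet. Its 2 libraries of COPD mice under control diet enclosed all other libraries, and the log2 fold change for both diets was 0.030 (SE 0.18, adjusted p = 0.960). Under control diet it was −0.15 (SE 0.26, adjusted p = 0.953), 0.21 without replicate 1 of COPD mice and −0.62 without replicate 2.

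Plvap (chromosome 8, 71497765 to 71511752, minus strand; ENSMUSG00000034845), which forms the diaphragms of endothelial caveolae and fenestrae, differed most between replicates. It had 454 and 413 CPM in control mice under control diet, 324 and 324 CPM under TJ-41 diet, 182 and 533 CPM in COPD mice under control diet and 254 and 374 CPM under TJ-41 diet. Both the lowest and the highest of the 8 values came from COPD mice under control diet. The log2 fold change under control diet was −0.28 (SE 0.41, adjusted p = 0.936). Without replicate 2 of that group it was −1.25, and without replicate 1 it was 0.29. For both diets it was −0.16 (SE 0.29, adjusted p = 0.849).

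Aplnr (chromosome 2, 85136225 to 85139923, plus strand; ENSMUSG00000044338), the apelin receptor gene, had 126 and 102 CPM in control mice under control diet, 106 and 120.1 CPM under TJ-41 diet, 83.0 and 105 CPM in COPD mice under control diet and 97.1 and 83.6 CPM under TJ-41 diet. The ranges overlapped slightly. Its log2 fold change for both diets was −0.30 (SE 0.13, adjusted p = 0.481), against −0.92 for the ligand.

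Neither of the genes shared by all endothelial cells passed the test. Pecam1 (CD31, a junction molecule through which leukocytes pass; chromosome 11, 106654217 to 106750628, minus strand; ENSMUSG00000020717) had 855 and 942 CPM in control mice under control diet, 839 and 874 CPM under TJ-41 diet, 856 and 841 CPM in COPD mice under control diet and 758 and 816 CPM under TJ-41 diet. Its log2 fold change for both diets, −0.10 (SE 0.12, adjusted p = 0.758), was smaller than 1 SE.
Cdh5 (chromosome 8, 104101625 to 104144511, plus strand; ENSMUSG00000031871) had 796 and 1061 CPM in control mice under control diet, 990.2 and 970.1 CPM under TJ-41 diet, 829.7 and 698 CPM in COPD mice under control diet and 785 and 879 CPM under TJ-41 diet. The overlap came from the first library of control mice, and the log2 fold change was −0.26 (SE 0.14, adjusted p = 0.567).

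Vwf (chromosome 6, 125546774 to 125686679, plus strand; ENSMUSG00000001930) encodes von Willebrand factor, which tethers platelets at sites of vessel injury. It had 399 and 507 CPM in control mice under control diet, 426 and 450.5 CPM under TJ-41 diet, 289 and 561 CPM in COPD mice under control diet and 466 and 602 CPM under TJ-41 diet. As for Plvap, the pair of COPD mice under control diet spread widely. The log2 fold change for both diets was 0.097 (SE 0.21, adjusted p = 0.878). Under control diet it was −0.093 (SE 0.30, adjusted p = 0.980), 0.30 without replicate 1 of COPD mice and −0.65 without replicate 2. The 6 platelet and megakaryocyte markers, whose cells also make Vwf, summed to 26.4 to 33.5 CPM in control mice and 23.9 to 42.6 CPM in COPD mice, and their part in the Vwf level was not tested.

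Over the 10 genes, the median log2 fold change was −0.22 under control diet, −0.25 under TJ-41 diet and −0.23 for both diets, beside medians of 0.0073, −0.0016 and −0.0017 over all genes tested. All 10 were below 0 under control diet, where 49% of all genes were, and 8 of 10 under TJ-41 diet and for both diets, where 50.2% and 50.2% were. Apln, Ednrb, Kdr and Aplnr, 4 of the 10, had an unadjusted p under 0.05 for both diets, as did 10.4% of all genes. Such a p was reached by Apln alone under control diet (7.7% of all genes) and by Apln, Ednrb and Kdr under TJ-41 diet (6.56%). On the TJ-41 diet, 7 genes had both libraries of COPD mice below both of control mice, as 27.9% of all genes did, and 2 genes, Gpihbp1 and Vwf, had them above, as 28.5% of all genes did. On the control diet Apln alone was separated, in the lower direction in which 14.1% of all genes were.

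**Figure D2:**
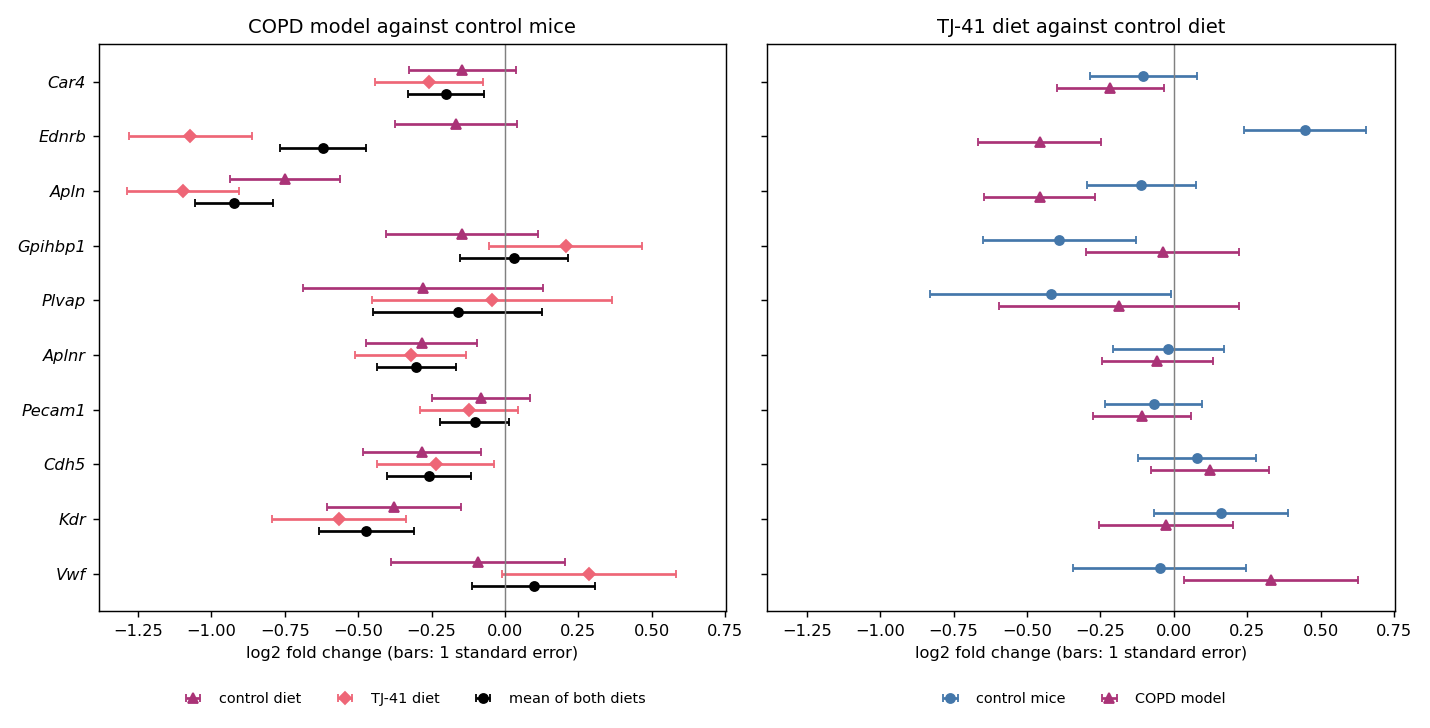
The x axis gives the log2 fold change of each gene, with bars of 1 standard error, for COPD mice against control mice (left panel) and for TJ-41 against control diet (right panel). Apln is left of 0 in all 3 fits of the left panel, from −1.10 to −0.75, and Ednrb is at 0.45 in control mice and at −0.46 in COPD mice in the right panel.

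The second question was whether the TJ-41 diet changed these genes. No member was called in control mice or in COPD mice, where 0% and 0.00487% of all genes were called, and none passed the false discovery rate alone. At an unadjusted p under 0.05 there were 0 members in control mice, against 1.64% of all genes, and 1 member, Apln, in COPD mice, against 4.1% of all genes. DESeq2 likewise called no member in either comparison. The median log2 fold change of the 10 genes was −0.059 in control mice and −0.083 in COPD mice, with 7 and 8 genes below 0, as 50.3% and 52.4% of all genes were. Since these comparisons share libraries with those of COPD mice against control mice, their values are not independent of them.

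The diet values of Ednrb had opposite signs in control mice and in COPD mice. Its level was higher in both libraries under TJ-41 diet than in both under control diet in control mice, with a log2 fold change of 0.45 (SE 0.21, adjusted p = 0.996), and lower in COPD mice, with −0.46 (SE 0.21, adjusted p = 0.991). The difference between these diet effects was −0.90 (SE 0.29, unadjusted p = 0.0131, adjusted p = 0.999). It did not pass the test, in which 0% of all genes were called by edgeR, and DESeq2 called no member either. Leaving out replicate 1 of COPD mice under control diet brought the Ednrb diet value in COPD mice to −0.13 and the difference to −0.57, and leaving out replicate 2 brought them to −0.73 and −1.16. In COPD mice the Apln level was also lower under TJ-41 diet, at 30.6 and 23.3 against 39.9 and 34.0 CPM, with a log2 fold change of −0.46 (SE 0.19, unadjusted p = 0.0385, adjusted p = 0.991), and it ran from −0.66 without replicate 1 to −0.27 without replicate 2 of COPD mice under TJ-41 diet. Pecam1 was the third gene whose libraries were separated there, with −0.11 (SE 0.17, adjusted p = 0.991), and 14.9% of all genes were separated in that direction.

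The summed levels of 2 marker lists of other cells were lower under TJ-41 diet in both libraries of COPD mice. The 7 cardiomyocyte markers summed to 501 and 655 CPM in COPD mice under control diet and to 298 and 243 CPM under TJ-41 diet. All 7 were below 0, with a median log2 fold change of −1.19, and all 7 had an unadjusted p under 0.05, beside 52.4% and 4.1% of all genes. The 5 red cell markers summed to 1941 and 3755 CPM under control diet and to 989 and 1198 CPM under TJ-41 diet, all 5 were below 0 with a median of −1.23, and 4 had such a p. No gene of these lists passed the false discovery rate (adjusted p = 0.991 for each), and their part in the values of Ednrb and Apln was not tested.

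Among general capillary genes, Plvap and Gpihbp1 were lower under TJ-41 diet in both libraries of control mice, as 19.1% of all genes were, with log2 fold changes of −0.42 (SE 0.41, adjusted p = 0.996) and −0.39 (SE 0.26, adjusted p = 0.996). In COPD mice their values were −0.19 (SE 0.41) and −0.037 (SE 0.26), and both turned positive without replicate 2 under control diet (0.79 and 0.44). The remaining genes had log2 fold changes from −0.11 to 0.16 in control mice and from −0.22 to 0.33 in COPD mice, each with an adjusted p of at least 0.991. For the difference between the diet effects, 6 of the 10 genes were below 0, as were 51.3% of all genes, the values ran from −0.90 for Ednrb to 0.38 for Vwf, and Ednrb alone had an unadjusted p under 0.05, as 3.27% of all genes did.

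To set the genes beside other endothelial RNA of the same library, each level was divided by the geometric mean of 18 further pan-endothelial genes, such as Tie1, Erg and Cldn5. That mean was 218 to 229 CPM in control mice and 198 to 224 CPM in COPD mice. The summed level of the 18 genes was 5344 to 5904 CPM in control mice and 4794 to 5276 CPM in COPD mice. For the 10 genes the sum was 3523 to 4077 CPM in control mice and 3057 to 3497 CPM in COPD mice. Neither sum overlapped between control mice and COPD mice, and the sums were not tested. The Apln ratio was 0.252 to 0.290 in the 4 libraries of control mice and 0.111 to 0.202 in the 4 libraries of COPD mice, so the libraries stayed apart on this scale too. The Ednrb ratio was 0.565 ± 0.112 (SD, n = 4) in control mice and 0.393 ± 0.122 in COPD mice, and the Kdr ratio was 2.70 ± 0.373 and 2.07 ± 0.420, both with overlapping libraries. Pecam1 had a ratio of 3.95 ± 0.122 in control mice and 3.91 ± 0.288 in COPD mice. Aplnr ran from 0.448 to 0.570 in control mice and from 0.398 to 0.472 in COPD mice.

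**Figure D3:**
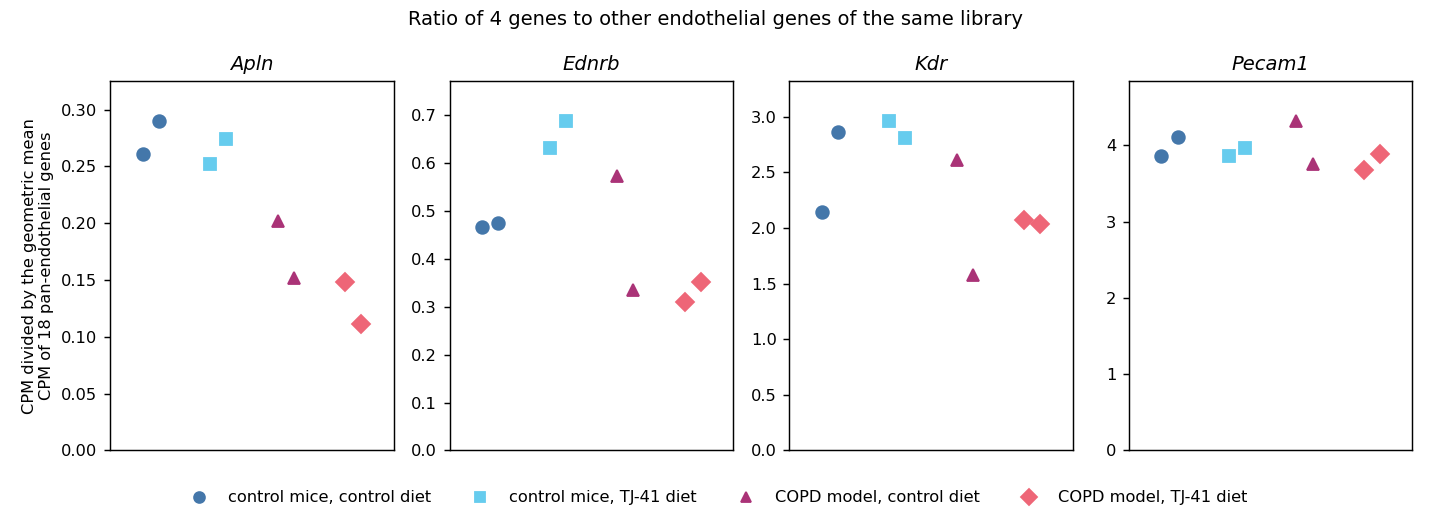
The y axis of each panel, starting at 0, gives the CPM of 1 gene divided by the geometric mean CPM of 18 pan-endothelial genes in the same library, and each symbol is 1 library (2 per group). The Apln ratio is at most 0.202 in COPD mice and at least 0.252 in control mice, and the mean Pecam1 ratio is 3.95 in control mice and 3.91 in COPD mice.

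Other genes of the same cells and pathways were read from lists written for this purpose, for the mean of both diets. None of the 18 pan-endothelial, 10 general capillary, 10 aerocyte or 8 arterial genes was called or passed the false discovery rate. The pan-endothelial list had 6 genes above 0 and 12 below, with a median log2 fold change of −0.094, and its largest values were −0.43 for Eng (adjusted p = 0.348) and 0.31 for Cd34 (adjusted p = 0.348). The general capillary list had 3 genes above 0 and 7 below with a median of −0.072, led by Cxcl12, a chemokine, at 0.90 (SE 0.21, adjusted p = 0.128) and Lpl at 0.39 (adjusted p = 0.387).

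The aerocyte list had 3 genes above 0 and 7 below, with a median of −0.27, and 4 of its 10 genes had an unadjusted p under 0.05, beside 50.2% below 0 and 10.4% with such a p over all genes. Its largest values were −0.61 for Fibin (SE 0.14, adjusted p = 0.126) and −0.61 for Chst1 (SE 0.12, adjusted p = 0.0815). Chst1, a sulfotransferase gene, had 22.8 to 25.9 CPM in the 4 libraries of control mice and 14.9 to 16.0 CPM in the 4 libraries of COPD mice. The summed level of the list was 3660.4 to 3816 CPM in control mice and 2855 to 3565 CPM in COPD mice. Some of its genes, such as Emp2, are also expressed in alveolar type I cells, whose 7 markers summed to 4898 to 5069 CPM in control mice and 4297 to 5762 CPM in COPD mice, and the part of these cells was not tested.

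In the arterial list, with 4 genes above 0 and 4 below, the largest value was −0.95 for Gja5 (connexin 40; SE 0.18, adjusted p = 0.0692). Gja5 had 63.8 to 73.2 CPM in control mice and 22.3, 41.8, 37.9 and 39.9 CPM in COPD mice. Dkk2 of the same list had −0.37 (adjusted p = 0.691). In the venous list, 4 of 8 genes were above 0, and Vcam1, an adhesion molecule for leukocytes, passed the false discovery rate with −0.76 (SE 0.11, adjusted p = 0.0184) without reaching the limit on fold change. The Vcam1 level was 148 to 169 CPM in control mice and 93.4 to 97.6 CPM in COPD mice, and Bst1 of the same list had 0.65 (adjusted p = 0.121).

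Of the 9 VEGF ligands and receptors, 6 were above 0 and 3 below with a median of 0.045, and none passed. Vegfa, the ligand of Kdr, had 923 to 1043 CPM in control mice and 723 to 818 CPM in COPD mice, with a log2 fold change of −0.35 (SE 0.12, adjusted p = 0.330), and Pgf had 0.47 (adjusted p = 0.571). Of the 7 endothelin and apelin genes beside the members, 5 had enough counts to be tested and none passed, with a median of −0.13 and the largest values for the endothelin-converting enzymes Ece2 (0.32, adjusted p = 0.659) and Ece1 (−0.25, adjusted p = 0.576). The 5 angiopoietin and Tie genes had a median of −0.13, none passed, and the largest values were −0.71 for Angptl4 (SE 0.42, adjusted p = 0.595) and −0.21 for Tek (adjusted p = 0.589).

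Outside the 10, the genes that followed their mean log2 CPM most closely over the 8 libraries, among 18047 with a mean of at least 1 CPM, were Emp2 (Pearson's r = 0.985), Itgb6 (0.979), Abcc3 (0.973), Cyp4b1 (0.970) and Glipr2 (0.969), and Emp2 and Cyp4b1 also stand in the aerocyte list. The correlation of each of the 10 genes with their own mean ran from 0.210 for Vwf to 0.805 for Apln. Each gene is itself part of that mean, which raises its value, so these correlations cannot be set beside those of genes outside the 10. These values describe 8 libraries that share 2 treatments and carry no test.

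The summed levels of 2 marker lists of other cells differed between control mice and COPD mice without overlap. The 6 alveolar macrophage markers summed to 505 to 618 CPM in control mice and 773 to 1482 CPM in COPD mice, led by Chil3 (log2 fold change 1.31, SE 0.24, adjusted p = 0.0586), although 3 of the 6 were below 0, with Fabp1 at −1.20 (adjusted p = 0.196). The 5 B and plasma cell markers summed to 219 to 369 CPM in control mice and 420.2 to 1020.3 CPM in COPD mice. Jchain of this list rose with a log2 fold change of 2.64 (SE 0.32, adjusted p = 0.00969), although 3 of the 5 were below 0 and the median was −0.24. The part of these cells in the values of the 10 genes was not tested. The alveolar type II markers that define lung tissue were abundant throughout, with sums of 18399.5 to 37456 CPM. Under TJ-41 diet they summed to 20710 and 18399.5 CPM in control mice and 26554 and 28022 CPM in COPD mice, and all 7 were above 0 (median 0.39). The 7 cardiomyocyte markers were all below 0 there (median −0.54), with 515 and 340 CPM in control mice and 298 and 243 CPM in COPD mice. The part of these cells was not tested either.

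The difference between the 2 libraries of COPD mice under control diet was not alike for all 10 genes. Replicate 2 was above replicate 1 by 1.55 on the log2 scale for Plvap, by 0.96 for Vwf and by 0.84 for Gpihbp1, and below it by −0.60 for Ednrb and −0.54 for Kdr. The GC content of the longest annotated transcript was 60.6% for Plvap, 56.5% for Vwf, 53.5% for Gpihbp1, 49.4% for Kdr and 43.9% for Ednrb. Across the 10 genes, which share the same pair of libraries, Pearson's r between this difference and GC content was 0.874, against −0.215 to 0.446 in the other groups. With each library corrected for gene length and GC content, the median log2 fold change of the 10 genes was −0.31 for both diets and −0.35 under TJ-41 diet, and Ednrb passed the false discovery rate for both diets (−0.55, adjusted p = 0.0440).

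**Figure D4:**
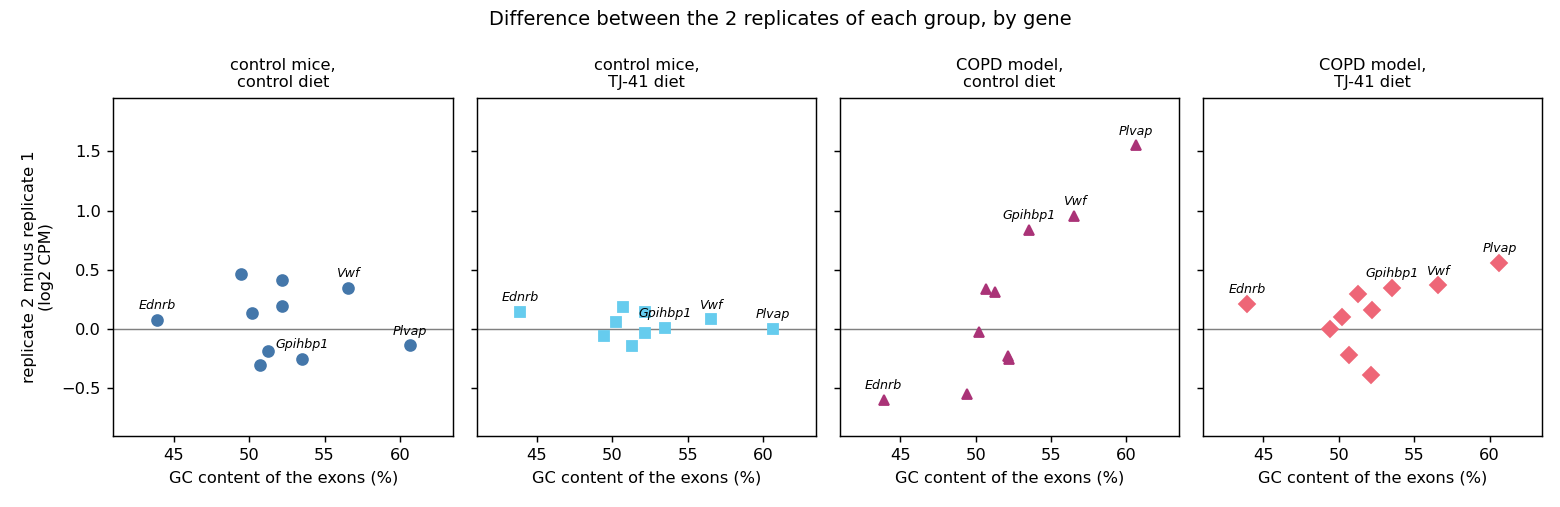
The x axis, labelled as GC content of the exons, gives the GC content of a gene's longest annotated transcript in percent. The y axis gives the log2 CPM of replicate 2 minus that of replicate 1, with 1 panel per group and 1 symbol per gene. The differences run from −0.60 to 1.55 in COPD mice under control diet and from −0.14 to 0.19 in control mice under TJ-41 diet.

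Sequence shared with other genes could affect few of the counts. Of the 50-base words in the transcripts, 1.54% were found in another gene for Pecam1, 0.947% for Vwf and 0.376% for Ednrb, and none for the other 7 genes. No exon of another gene overlapped an exon of the 10 genes on either strand.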

How the data were processed

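Total RNA of mouse lung was extracted with a silica column kit and sequenced in 8 libraries. The files as deposited hold raw read counts, whole numbers, for each Ensembl identifier. HISAT2, edgeR and the build mm10 are named in the submitters' processing notes; the study's methods name CLC Genomics Workbench for the RNA-seq analysis, and which program counted the reads, with which gene models, strand setting and rule for reads with several matches, was not given in the sources used here, so that antisense reads cannot be separated. Groups and replicate numbers were taken from the sample labels, which give the diet as TJ41 in the titles and TJ4 in another field, both read as TJ-41. The diet of the other groups is given there as NT or none.

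Of the 52636 identifiers, 52489 matched GENCODE M21 (GRCm38), which gave names and positions. The analysis used edgeR 4.0.16 under R 4.3.3: filterByExpr (minimum count 10, minimum total 15), TMM factors (0.935 to 1.02), 1 fit of the 4 group means over all 8 libraries and the quasi-likelihood test with 4 residual degrees of freedom. The common biological coefficient of variation was 0.208. Standard errors are the absolute log2 fold change divided by the root of F. The steps were tested on simulated data. None of the libraries was a duplicate: replicates differed by 12.0 to 88.6 times the variance from counting alone.

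The 10 members and the 22 other gene lists, written by hand from general knowledge, were chosen with earlier results of these data known. Named are all 10 members, list genes that were called, or else up to 2 list genes with the largest absolute log2 fold change, and the 5 genes with the highest correlation with the members' mean. Levels per library of Chst1, Vegfa, Gja5, Vcam1 and Prox1 were picked after their values were seen. Over both diets, 3.43% of all genes tested were separated without overlap in the lower direction and 3.35% in the higher direction. Of Ccl21a, which has 2 identifiers, the one with more counts was used. Alternatives were DESeq2 1.42.0, relative log expression (RLE) factors, library size alone, all genes with a count, only the groups compared, genes averaging 1 CPM or more, the false discovery rate alone, a replicate block, a loess correction for length and GC content (span 0.5), and leaving out each library in turn.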

Additional observations from a re-analysis of the deposited data

How the results depend on the processing

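Calls and medians changed when single libraries were left out and with some of the other settings. On the TJ-41 diet, 2 members were called in place of 0 with DESeq2, with all genes with a count and with only the groups compared. The share of all genes called in these settings was not worked out. For both diets 1 member passed under the false discovery rate alone. The median log2 fold change of the members was −0.35 under TJ-41 diet and −0.31 for both diets after the length and GC correction. Leaving out 1 library moved it between −0.38 and −0.11 under control diet, −0.33 and −0.13 under TJ-41 diet, −0.31 and −0.17 for both diets, −0.13 and −0.0088 for the TJ-41 diet in control mice (without replicate 1 and replicate 2 of control mice under control diet), and −0.19 and −0.025 for the TJ-41 diet in COPD mice. The cause of these shifts was not tested.

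Several values near 0 changed sign. With the length and GC correction, Vwf under control diet became 0.065, Gpihbp1 for both diets −0.069 and the difference of the diet effects for Cdh5 −0.032. With library size alone, the TJ-41 diet in COPD mice gave 0.025 for Gpihbp1 and 0.0058 for Kdr, and the difference of the diet effects became 0.019 for Pecam1 and 0.034 for Aplnr. Leaving out 1 library gave, for COPD mice against control mice under control diet, Ednrb −0.50 to 0.10, Gpihbp1 −0.62 to 0.21, Plvap −1.25 to 0.29 and Vwf −0.65 to 0.30, under TJ-41 diet Plvap −0.34 to 0.21, and for both diets Gpihbp1 −0.20 to 0.21, Plvap −0.64 to 0.13 and Vwf −0.17 to 0.30. For the TJ-41 diet it gave, in control mice, Cdh5 −0.12 to 0.30, Kdr −0.056 to 0.41, Aplnr −0.17 to 0.14 and Vwf −0.21 to 0.13, and in COPD mice Gpihbp1 −0.39 to 0.44, Plvap −0.76 to 0.79, Kdr −0.28 to 0.27, Aplnr −0.21 to 0.12 and Vwf −0.068 to 0.89. The difference of the diet effects ran from −0.26 to 0.061 for Car4, −0.33 to 1.22 for Plvap, −0.097 to 0.033 for Pecam1, −0.16 to 0.24 for Cdh5, −0.43 to 0.12 for Kdr, −0.19 to 0.15 for Aplnr and −0.011 to 0.95 for Vwf.

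The replicate numbers did not pair the libraries, since replicate 2 minus replicate 1, compared across groups gene by gene, gave correlations of −0.23 to 0.11. With the replicate number as a block, Apln for both diets had a log2 fold change of −0.93 and an adjusted p of 0.0545, and no other call on a member changed.

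Depth was alike in all libraries and each member had at least 456 counts in each. The groups hold 2 libraries each, which limits the precision of every comparison.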

Other observations

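Lymphatic and lipid handling genes of the lung vessels were read for the mean of both diets. Of the 8 lymphatic endothelial genes, 6 were above 0 with a median log2 fold change of 0.44, beside −0.0017 for all genes tested, and none passed the false discovery rate. Prox1, the transcription factor of lymphatic identity, had 5.28 to 7.43 CPM in the 4 libraries of control mice and 9.08 to 12.6 CPM in the 4 libraries of COPD mice (0.70, SE 0.16, adjusted p = 0.127, edgeR), and Reln had 0.77 (SE 0.18, adjusted p = 0.129). Of the 7 genes of lipoprotein lipolysis and fatty acid uptake, which include Lpl, the partner of Gpihbp1, 5 were above 0 and 2 below, with a median of 0.35, and none passed. Their summed level leaned the other way, with overlap, at 1705 to 2302 CPM in control mice and 1319 to 1845 CPM in COPD mice. The fatty acid carrier Fabp4 had 1.03 (SE 0.28, adjusted p = 0.197) and Angptl4, an inhibitor of lipoprotein lipase, −0.71 (adjusted p = 0.595).

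No gene passed the false discovery rate among the markers of alveolar type I cells (3 of 7 above 0), alveolar type II cells (6 of 7), club cells (1 of 3), pericytes (2 of 6), smooth muscle (1 of 5), fibroblasts (4 of 6), alveolar macrophages (3 of 6), platelets and megakaryocytes (6 of 6), neutrophils (2 of 6), cardiomyocytes (3 of 7) and red cells (4 of 5). In the B and plasma cell list (2 of 5 above 0), 1 of 5 genes passed, namely Jchain, which was also called under control diet (3.64, SE 0.47, adjusted p = 0.0343). In the 4 other comparisons no gene of these lists was called.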
